A study of Mus musculus with 8 samples.

Results

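The genes described are a set of epidermal serine proteases and 1 of their inhibitors: the tissue kallikreins Klk5, Klk6, Klk7, Klk8, Klk10, Klk11 and Klk13, the membrane-anchored proteases Prss8 (prostasin) and St14 (matriptase), and Spink5, which encodes the inhibitor LEKTI. They were chosen by name, and a gene counted as measured when a probe set of the array was annotated to it alone. Of the 10 genes, 8 had such a probe set, 1 each, and all 8 were among the 11984 genes tested. Klk5 and Klk13 had no probe set annotated to them and were not analysed here. The expression arrays were made from Epcam-sorted mouse skin tumour cells, 8 arrays in 4 groups of 2. The groups were papilloma without added NR2F2 (genotype NR2F2 WT), papilloma with NR2F2 overexpressed (gain of function, GOF), carcinoma without Cre (NR2F2 WT), and skin squamous cell carcinoma of genotype K5CreER;NR2F2fl/fl (NR2F2 KO, titled LOF). In the last group a CreER recombinase is driven by the keratin 5 promoter, which is active in basal keratinocytes. How NR2F2 was overexpressed, whether the Cre-negative mice carried floxed alleles, and the age, strain and treatment of the mice are not given in the sources used here. Nothing says that arrays of the same group are from different mice, so p-values here speak of array-to-array spread alone, which may be technical.

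NR2F2 (COUP-TFII) is an orphan member of the nuclear receptor family and binds DNA. Tissue kallikreins are secreted trypsin-like or chymotrypsin-like proteases, made as inactive precursors and encoded side by side in 1 locus. In normal epidermis they are released in the granular layer, where they cut the desmosomal proteins that hold corneocytes together and so let the surface shed. Matriptase and prostasin act above them at the cell membrane in an activation cascade, and LEKTI keeps the kallikreins in check; loss of LEKTI in people causes Netherton syndrome.

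The papilloma and carcinoma values were on different scales, with array medians of 3.12 to 3.16 and 5.08 to 5.15 (log2), so each comparison stayed within 1 tumour type. A level is called above background when it exceeded all 44 of the array's own control probe sets against sequences foreign to mouse (3.09 to 3.33 in papilloma, 4.95 to 5.01 in carcinoma). Nr2f2 itself went with the labels, at 2.67 ± 0.17 (SD, n = 2) in control papilloma, 11.45 ± 0.03 in GOF papilloma, 8.03 ± 0.15 in control carcinoma and 4.89 ± 0.16 in KO carcinoma. These are the values of 1 of its 4 probe sets, the one with the highest mean, which was not above background in control papilloma and at least 321-fold higher with GOF. The other 3 probe sets of Nr2f2 gave log2 fold changes of 0.96, 0.26 and -0.04 with GOF and of -3.07, -1.61 and -0.32 in the KO. The basal keratin Krt5 lay between 12.35 and 12.75 on every array, whereas the sorting antigen Epcam was lower in GOF papilloma (8.84 ± 0.23) than in its control (10.37 ± 0.29). A fold of log2 values is given as a log2 fold change with the standard error (SE) of a limma fit over all genes, and a gene passed when its Benjamini-Hochberg adjusted p over all 11984 genes was under 0.05. With 2 arrays against 2 an exact permutation test cannot go below p = 0.333. A second, descriptive rule calls a gene separated when each of the 4 pairings of 1 treated with 1 control array shows a gap of 1.5-fold or more, always of of the same sign.

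NR2F2 overexpression in papilloma went with higher levels of most of these genes, and Klk8 passed the test. Klk8 rose 7.27-fold. Klk6, Prss8, Klk11 and Klk10 also stood at least 1.5-fold above both controls on both GOF arrays but did not pass. St14 was level and Klk7 was the 1 gene with a negative value. Of the 8 genes 1 passed, where 0.968% of all genes passed in that direction, and 5 of 8 were higher in all 4 array pairs, where 4.59% of all genes were. None passed as lower (0.567% of all genes) or was lower in all 4 pairs (2.58%). The median log2 fold change over the 8 genes was 1.54, against 0.04 over all genes tested. All 8 lay above background on all 4 papilloma arrays.

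**Figure D1:**
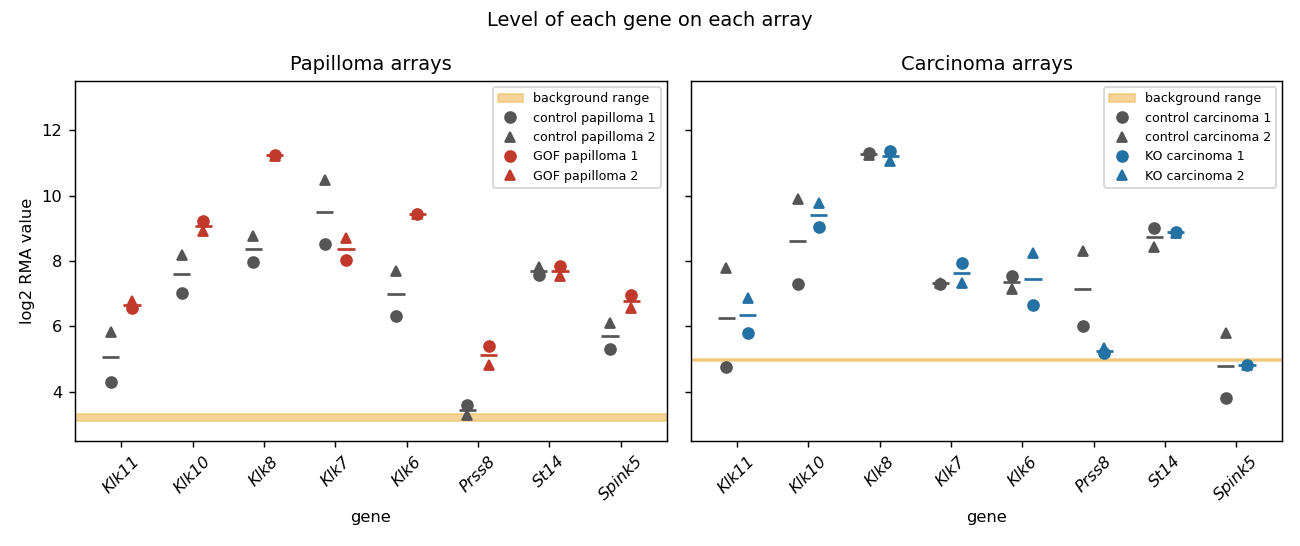
Log2 values of the 8 measured genes on each array, papilloma on the left and carcinoma on the right. Circles are replicate 1, triangles replicate 2, short lines group means, grey the controls, red GOF and blue KO, and the shaded band is the range of the background over the 4 arrays. The red points of Klk8 and Klk6 lie far above the grey ones, and the grey points of Klk10, Klk11, Prss8 and Spink5 in carcinoma lie far apart.

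Among the kallikreins, Klk8 (neuropsin), a trypsin-like protease of the upper epidermis that is also known from the brain, stood at 7.97 and 8.77 on the control papilloma arrays and at 11.25 and 11.21 on the GOF arrays. The 2 GOF arrays were nearly alike and both lay well above both controls. The log2 fold change was 2.86 (SE 0.27, adjusted p = 0.0110 in limma), the 16th smallest p of all genes. Its call ended without GOF replicate 1 (adjusted p = 0.128 in limma) and without GOF replicate 2 (0.125), with the fold changes little moved at 2.84 and 2.88.

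Klk6 (neurosin), a trypsin-like protease often raised in epithelial tumours, had the next largest difference. It was at 6.31 and 7.68 in the controls and at 9.42 and 9.43 with GOF. The GOF arrays were again close together and above both controls, although the controls differed from each other by 1.37. The log2 fold change was 2.43 (SE 0.59), 5.39-fold, and did not pass (adjusted p = 0.0984 in limma). It was 1.74 without control replicate 1 and 3.12 without control replicate 2.

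Klk10 and Klk11 showed smaller differences, also with both GOF arrays above both controls. Klk10, a kallikrein of squamous epithelia, was at 7.03 and 8.17 in the controls and 9.21 and 8.92 with GOF, a log2 fold change of 1.46 (SE 0.81, adjusted p = 0.398 in limma). Klk11, a trypsin-like kallikrein, was at 4.28 and 5.82 in the controls and at 6.55 and 6.78 with GOF, a log2 fold change of 1.61 (SE 0.97, adjusted p = 0.439 in limma). In both genes control replicate 2 was closer to the GOF arrays than control replicate 1 was. Without control replicate 1 the values were 0.90 for Klk10 and 0.84 for Klk11, and without control replicate 2 they were 2.03 and 2.38.

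Klk7, the chymotrypsin-like enzyme of corneocyte shedding, did not go with its neighbours. It was at 8.51 and 10.46 in the controls and 8.02 and 8.69 with GOF, so that GOF replicate 2 lay between the 2 controls. The log2 fold change was -1.13 (SE 0.59, adjusted p = 0.372 in limma), with a 95% interval from -2.53 to 0.27. Without control replicate 1 it was -2.11 and without control replicate 2 it was -0.16.

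The membrane proteases differed from each other in GOF papilloma. Prss8, the membrane-anchored prostasin, was at 3.59 and 3.28 in the controls, just above background, and at 5.41 and 4.82 with GOF. Both GOF arrays were higher than both controls, by a log2 fold change of 1.68 (SE 0.66, 3.21-fold), which did not pass (adjusted p = 0.247 in limma). It passed without control carcinoma replicate 1 (adjusted p = 0.0267 in limma) or without control carcinoma replicate 2 (0.0266), 2 arrays that enter this comparison through the common spread alone. St14, the transmembrane protease matriptase, was at 7.57 and 7.81 in the controls and 7.85 and 7.55 with GOF. Its arrays overlapped, and the 95% interval of the log2 fold change of 0.01 ran from -0.53 to 0.55.

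The inhibitor gene Spink5 was at 5.30 and 6.09 in the control papillomas and at 6.96 and 6.57 in the GOF papillomas. Both GOF values were above both controls, but the closest pair was less than 1.5-fold apart. The log2 fold change was 1.07 (SE 0.60, adjusted p = 0.408 in limma), of the same sign as in Klk6, Klk8, Klk10 and Klk11. It was 0.67 without control replicate 1 and 1.47 without control replicate 2.

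**Figure D2:**
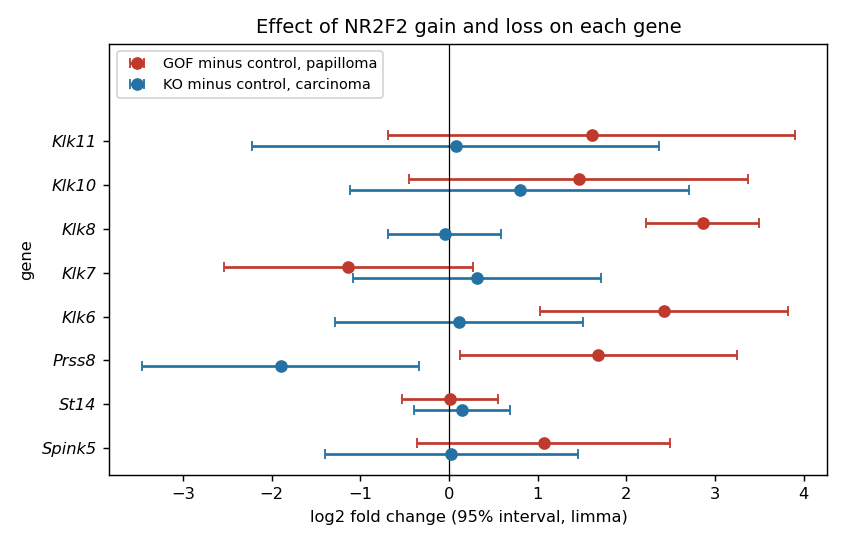
Log2 fold change of each gene with its 95% limma interval, GOF minus control in papilloma in red and KO minus control in carcinoma in blue. The intervals of Klk8, Klk6 and Prss8 in papilloma and of Prss8 in carcinoma leave out 0, and the blue points of the other genes lie between -0.05 and 0.79.

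Removal of Nr2f2 in carcinoma went with no common shift of these genes. None of the 8 passed in either direction, where 2 of all 11984 genes did (0.0167%, both lower), and at an unadjusted p under 0.05 of the same limma fit Prss8 alone of the 8 passed, where 1716 genes (14.3%) did. Prss8 was also the 1 gene of the 8 that was at least 1.5-fold lower in all 4 array pairs, where 1.7% of all genes were, and none was higher in all 4 (1.65% of all genes). The median log2 fold change of the 8 was 0.09.

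Prss8 was at 6.0 and 8.30 in the control carcinomas and at 5.18 and 5.32 in the KO carcinomas. Both KO arrays were close to background and below both controls, which themselves differed by 2.31. The log2 fold change was -1.90 (SE 0.66), 3.73-fold lower, with adjusted p = 0.276 in limma. The size rested on the controls. It was -0.75 without control replicate 2 (adjusted p = 0.414) and -3.05 without control replicate 1, where it passed (0.0166).

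Klk8 was about level in carcinoma, at 11.29 and 11.23 in the controls against 11.37 and 11.05 in the KO. The arrays overlapped, and the log2 fold change of -0.05 had a 95% interval from -0.69 to 0.59. The difference between the KO effect and the GOF effect on Klk8 was -2.91 (SE 0.38, adjusted p = 0.0476 in limma). In that test 1 of 8 genes passed, where 0.342% of all genes passed, 0.309% as lower and 0.0334% as higher. At an unadjusted p under 0.05 it was 3 of 8 (Klk8, Prss8 and Klk6), where 15.1% of all genes were. The call of this difference ended under several other settings, given in the closing part.

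Klk6 and Klk7 had overlapping or nearly touching groups in carcinoma. Klk6 was at 7.55 and 7.13 in the controls against 6.66 and 8.25 in the KO, 1 KO array below and 1 above both controls. Klk7 was at 7.31 and 7.32 in the controls against 7.92 and 7.33 in the KO. The log2 fold changes were 0.11 (95% interval -1.28 to 1.51) and 0.32 (-1.08 to 1.72).

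For Klk10, Klk11 and Spink5 the 2 control carcinomas differed more than the groups did. Klk10 was at 7.29 and 9.91 in the controls against 9.02 and 9.76 in the KO. Klk11 was at 4.75, below background, and 7.77 in the controls, and at 5.80 and 6.87 in the KO. Spink5 was at 3.8 and 5.80 in the controls against 4.83 and 4.83 in the KO, with control replicate 2 the 1 array above background.

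In all 3 genes the KO values lay between the 2 controls. The log2 fold change of Klk10 was 2.1 against control replicate 1 alone and -0.51 against control replicate 2 alone. Klk11 was likewise above control replicate 1 and below control replicate 2 on both KO arrays, but as control replicate 1 was below background its fold there is only a bound. For Spink5, with 3 of the 4 carcinoma arrays below background, no fold is given. Prss8 was lower under both choices.

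St14 was at 9.01 and 8.44 in the control carcinomas and at 8.88 and 8.86 in the KO. The KO values lay within the range of the controls. The 95% interval of the log2 fold change of 0.15 ran from -0.39 to 0.69, the narrowest of the 8 genes with that in papilloma.

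The spread between arrays of 1 group was wide in these genes. In control papilloma 4 of the 8 genes differed by at least 1 log2 unit between the replicates, where 4.6% of all genes did, and 7 of 8 were higher on replicate 2. In control carcinoma 4 of 8 did (Klk10, Klk11, Prss8 and Spink5, all higher on replicate 2), where 6.98% of all genes did. In KO carcinoma 2 did, where 3.95% of all genes did, and in GOF papilloma none did, where 0.868% of all genes did. Klk11 and Spink5 were below background on control carcinoma replicate 1, so their gaps in that group rest in part on such signals.

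The kallikreins with values lie close together in the RefSeq order of genes, with Klk9, which had no annotated probe set, among them. The order runs Klk14, Klk13, Klk12, Klk11, Klk10, Klk9, Klk8, Klk7, Klk6, Klk5, Klk4 and Klk15 on mouse chromosome 7. Klk7, with its negative value in GOF papilloma, lies directly between Klk8 and Klk6, the genes with the largest positive ones. Beyond them come Klk1 and its near-identical Klk1b relatives, which are expressed mainly in salivary gland and kidney. Of 19 other genes of the locus 12 had a probe set, 4 passed the filter on low values and none passed the test or was separated in all 4 pairs in either comparison. Their log2 fold changes ran from -0.32 to 0.14 in GOF papilloma and from -0.05 to 0.30 in KO carcinoma, and probes cannot be assumed to tell the Klk1b genes apart. Of the 4, Klk1b9 (the 0.14) and Klk1b24 were at or below background on all papilloma arrays, so their values there are not sizes of change.

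**Figure D3:**
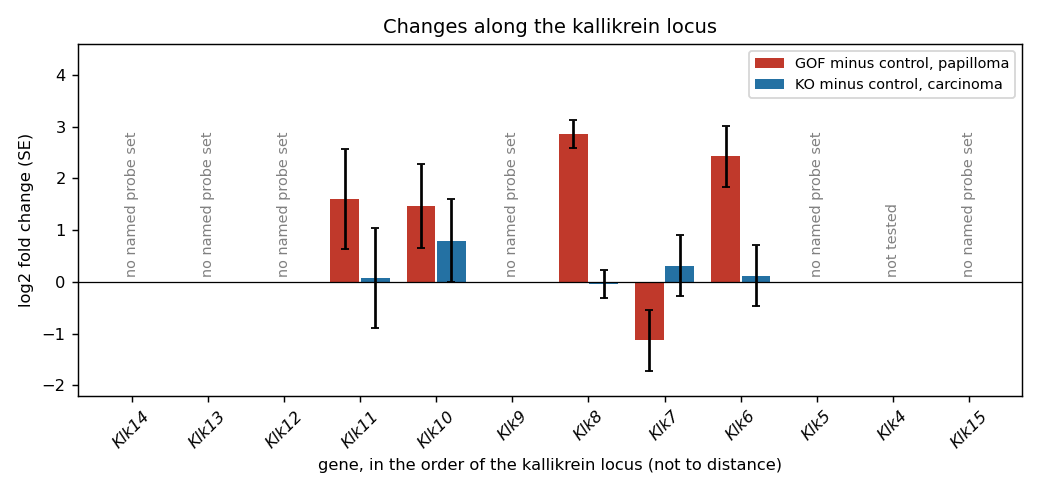
Log2 fold changes (bars) with their SE along the kallikrein genes in the order in which they lie, distances not to scale, red for GOF minus control in papilloma and blue for KO minus control in carcinoma. Positive red bars at Klk11, Klk10, Klk8 and Klk6 stand on both sides of the negative one at Klk7.

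Promoter windows of these kallikreins, 250 bases before to 50 bases after an annotated start, came from a table of RefSeq starts on GRCm38.p6. Klk7, Klk8 and Klk10 were matched to 1 window each and Klk6 and Klk11 to 2, and windows of Prss8, St14 and Spink5 were not used here. The 3 windows that hold the run described next, of Klk10, Klk8 and Klk6, and that of Klk7, which lies between the last 2 genes, are shown 5′ to 3′ on the + strand, which is the strand of the genes. Capitals mark the run GTTAAAA, which was noticed by reading the windows.
Klk10, chr7:43780804-43781103: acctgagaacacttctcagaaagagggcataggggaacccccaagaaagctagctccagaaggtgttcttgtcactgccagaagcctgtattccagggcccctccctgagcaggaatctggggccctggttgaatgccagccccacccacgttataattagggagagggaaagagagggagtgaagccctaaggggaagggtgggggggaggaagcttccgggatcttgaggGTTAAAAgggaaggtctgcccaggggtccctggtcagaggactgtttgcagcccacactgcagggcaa
Klk8, chr7:43797327-43797626: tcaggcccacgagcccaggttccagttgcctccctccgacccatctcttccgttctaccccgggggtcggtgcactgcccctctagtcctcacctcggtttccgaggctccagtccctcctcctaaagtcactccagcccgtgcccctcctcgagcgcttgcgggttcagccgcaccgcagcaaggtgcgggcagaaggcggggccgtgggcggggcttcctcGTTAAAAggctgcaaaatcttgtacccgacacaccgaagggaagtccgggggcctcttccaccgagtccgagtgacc
Klk7, chr7:43811044-43811343: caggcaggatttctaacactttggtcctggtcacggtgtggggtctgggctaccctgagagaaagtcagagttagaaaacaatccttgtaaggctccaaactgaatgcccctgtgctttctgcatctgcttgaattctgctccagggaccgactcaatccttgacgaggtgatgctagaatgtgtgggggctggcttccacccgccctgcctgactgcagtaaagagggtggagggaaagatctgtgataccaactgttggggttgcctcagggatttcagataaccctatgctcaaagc
Klk6, chr7:43825200-43825499: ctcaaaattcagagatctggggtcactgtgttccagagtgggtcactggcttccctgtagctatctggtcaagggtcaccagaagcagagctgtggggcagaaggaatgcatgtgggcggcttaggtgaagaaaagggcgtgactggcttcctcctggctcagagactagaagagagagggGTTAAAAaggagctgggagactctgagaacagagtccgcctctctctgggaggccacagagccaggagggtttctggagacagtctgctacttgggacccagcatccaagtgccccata
The run began 27 bases before the start in Klk8, 18 before it in Klk10 and 69 before it in this window of Klk6. As the run was picked from these same windows, its count in them cannot serve as a test against other windows. Searched on both strands, it was in 3 of the 7 windows of the 5 kallikreins and in 3.41% of the 32851 windows of the table. The run was in neither window of Klk11, which was also higher in GOF papilloma. It was also not in the other window of Klk6 or in that of Klk7. Whether it goes with the values was not tested. The nuclear receptor half-site AGGTCA, sought on both strands, was in none of the 7, where 16.3% of all windows held it. Nor was its direct repeat with 1 base between the copies (0.0396% of windows), the AP-1 run TGANTCA (7.81%) or TATAAA (13.6%). The GC box GGGCGG was in 4 of the 7, where 35.7% of windows held it. It stood in the windows of Klk7 and Klk8 and in both windows of Klk6. These are matches of letters, not sites, and a window without a match says only that the letters are not there.

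Among 20 other membrane-anchored serine proteases 9 were tested, and none passed in either comparison. Tmprss11e (DESC1), a transmembrane protease of stratified epithelia, was at 3.49 on both control papilloma arrays and at 6.02 and 5.78 with GOF, a log2 fold change of 2.41 (SE 0.49, adjusted p = 0.0678 in limma). It was the 1 gene of the list separated in all 4 pairs in papilloma. In carcinoma its KO arrays (8.56 and 6.84) were both below both controls (9.05 and 9.38), but the closest pair was less than 1.5-fold apart. The log2 fold change there was -1.51 (SE 0.49, adjusted p = 0.253 in limma). Its KO effect minus GOF effect was -3.92 (SE 0.70, adjusted p = 0.0788 in limma). In carcinoma 2 other genes of the list were separated, both lower in the KO. Prss27 (marapsin), a protease of squamous epithelium, was at 6.05 and 8.97 in the controls against 5.28 and 5.08 in the KO, and Tmprss11d, a transmembrane protease first known from airway, at 5.95 and 7.33 against 5.27 and 4.0, the last of them below background. Their log2 fold changes were -2.33 (SE 0.80, adjusted p = 0.273 in limma) and -2.01 (SE 0.53, adjusted p = 0.196 in limma). As with Prss8, control carcinoma replicate 2 was the highest array in both genes. The list's medians were 0.25 in GOF papilloma and -0.68 in KO carcinoma, against 0.04 and 0.01 over all genes. The papilloma median was the value of Tmprss11a, which was at or below background on all 4 papilloma arrays, so it is not a size of change. Tmprss11d was at or below background on both control papilloma arrays and Prss27 on both GOF arrays.

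Of 10 other inhibitor genes 7 were tested. Wfdc5, which encodes a small secreted protein with the fold of whey acidic protein inhibitors, rose in GOF papilloma from 3.77 and 4.71 to 6.43 and 6.81. Its log2 fold change was 2.38 (SE 0.36, adjusted p = 0.0362 in limma). Slpi, the secretory leukocyte protease inhibitor, was at 10.60 and 10.55 in the controls and 11.71 and 11.66 with GOF, a log2 fold change of 1.11 that did not pass (SE 0.20, adjusted p = 0.0538 in limma). Spint1 and Spint2, the Kunitz-type inhibitors of matriptase and prostasin, had log2 fold changes of -0.26 and 0.28 in GOF papilloma and of -0.62 and -0.40 in KO carcinoma. None of the 7 passed in carcinoma, where 6 had negative values and the median was -0.40.

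Among 17 tested genes for substrates and receptors of these proteases, 2 passed as higher and 1 as lower in GOF papilloma. Of all genes, 0.968% and 0.567% did. Positive values were found in 7 of the 17, and the list's median was -0.14, against 0.04 over all genes. The desmogleins Dsg1a and Dsg1b, adhesion proteins of upper epidermal desmosomes that kallikreins cut, rose by log2 fold changes of 1.27 (SE 0.20, adjusted p = 0.0362 in limma) and 1.64 (SE 0.24, adjusted p = 0.0348 in limma). Dsg1a and Dsg1b are close paralogs, so their probe sets may share signal, and neither was above background on any carcinoma array. Epcam, which matriptase cleaves and which was the sorting antigen, fell by 1.53 (SE 0.23, adjusted p = 0.0349 in limma). In KO carcinoma none of the 17 passed. The tight junction gene Ocln was at 8.49 and 7.17 in the controls against 6.56 and 5.72 in the KO, lower in all 4 pairs (log2 fold change -1.69, SE 0.50, adjusted p = 0.224 in limma).

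The genes of the granular layer and cornified envelope, the place where kallikreins are normally made, gave no passing gene among 23 tested in either comparison. In GOF papilloma 17 had positive values, where 6586 of all 11984 genes had. In that list 4 were higher in all 4 pairs (4.59% of all genes) and the median was 0.43 (0.04 over all genes). Lce3a, a late cornified envelope gene, was at 3.91 and 5.35 in the controls and 7.85 and 8.35 with GOF (log2 fold change 3.47, SE 0.63, adjusted p = 0.0538 in limma). Alox12b, a barrier lipoxygenase gene, had 2.39 and Lor, the gene of loricrin, 2.04, with adjusted p = 0.168 in limma and 0.146. In carcinoma 11 of 23 had positive values, where 6209 of all 11984 genes had. Abca12, a lipid transporter gene, was the 1 separated in all 4 pairs. It was below background on both control arrays (3.73 and 3.91) and above it on 1 of the 2 KO arrays (5.09 and 4.82).

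**Figure D4:**
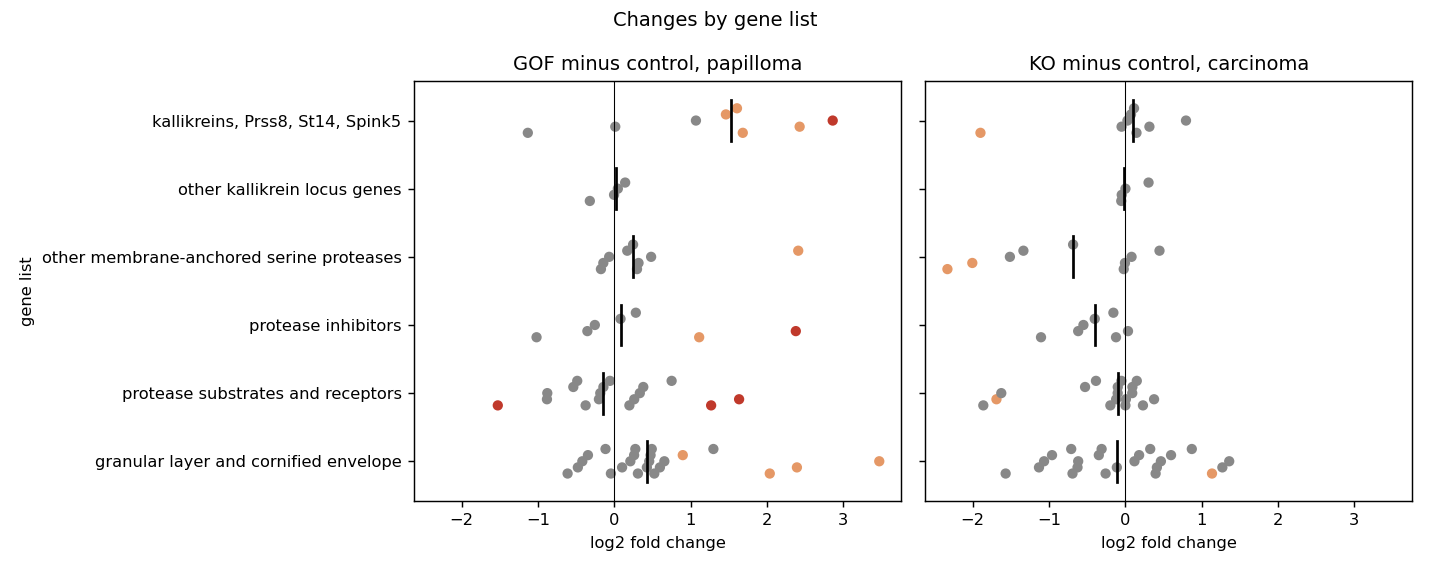
Log2 fold changes of the tested genes of 6 lists, GOF minus control in papilloma on the left and KO minus control in carcinoma on the right. Dark red points passed the limma threshold, orange points were at least 1.5-fold apart in all 4 array pairs without passing, grey points did neither, and black bars are list medians. In papilloma the median of the 8 genes (1.54) is the highest of the 6, and in carcinoma the membrane protease list has the lowest (-0.68). Lists of other cell types, described below, are not shown. Their medians in papilloma were 2.40 (macrophage and monocyte), 2.05 (endothelial) and 0.70 (fibroblast). In carcinoma they were -0.84, -0.67 and -1.01.

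The mean level of the 8 genes was 6.32 and 7.26 on the control papilloma arrays, 8.08 and 8.0 with GOF, 7.12 and 8.24 on the control carcinoma arrays, and 7.46 and 7.79 in the KO. The granular layer list ran with it in part, at 7.57 and 8.09, then 8.23 and 8.55 in papilloma, and at 6.63 and 7.92, then 7.29 and 7.15 in carcinoma. Control carcinoma replicate 2 was the highest carcinoma array in both lists.

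Markers of other cell types also moved with these arrays. The mean of 11 macrophage and monocyte genes was 3.30 and 3.21 in control papilloma against 5.36 and 6.43 with GOF, with Lyz2 (at least 33.6-fold higher) and C1qc (log2 fold change 3.96) passing and 9 of 11 separated in all 4 pairs, Tyrobp (3.77) among them. Of 8 endothelial genes 5 passed (Cdh5, Emcn, Plvap, Egfl7 and Flt1) and 7 were separated in all 4 pairs. The mean of the 8 was 3.58 and 3.41 against 5.44 and 5.55. Of all genes, 0.968% passed as higher in papilloma and 4.59% were higher in all 4 pairs. In papilloma the probe sets not used gave log2 fold changes of 1.39 in Cdh5, 1.05 and 2.49 in Egfl7, and 1.01 and 1.32 in Flt1. Those used gave 3.09, 1.93 and 1.03. Of the 7 fibroblast genes none was separated, with means of 7.63 and 6.51 against 7.77 and 8.08. In carcinoma none passed, and Lyz2 and Flt1 were lower in all 4 pairs (-1.62 and -1.11). The other probe sets of Flt1 gave -1.08 and -0.43 in carcinoma. None of the 11 macrophage, 8 endothelial and 7 fibroblast genes had a positive value there, where 6209 of all 11984 genes had. Control carcinoma replicate 2 was the highest array for the macrophage list (6.83, the other 3 arrays 5.05 to 5.39). It was also the highest for the endothelial list (6.26, the others 5.03 to 5.31) and the fibroblast list (7.91, the others 5.95 to 6.59). Both control papilloma arrays had Ptprc, Lyz2, C1qb, Tek and Pdgfra at or below background, and both KO arrays had Ptprc, Adgre1, Emcn, Plvap, Kdr, Tek, Lum and Pdgfra there. Among 8 epithelial genes Krt8, a keratin of simple epithelia, rose in GOF papilloma from 3.29 and 3.34 to 8.38 and 8.89, and its partner Krt18 had 2.08 (adjusted p = 0.111 in limma). Of 7 T cell genes 1 was tested, Thy1, which fibroblasts also make. The part of these cells in the protease values was not tested, and in sorted bulk cells fewer cells of a type and less RNA per cell cannot be told apart.

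**Figure D5:**
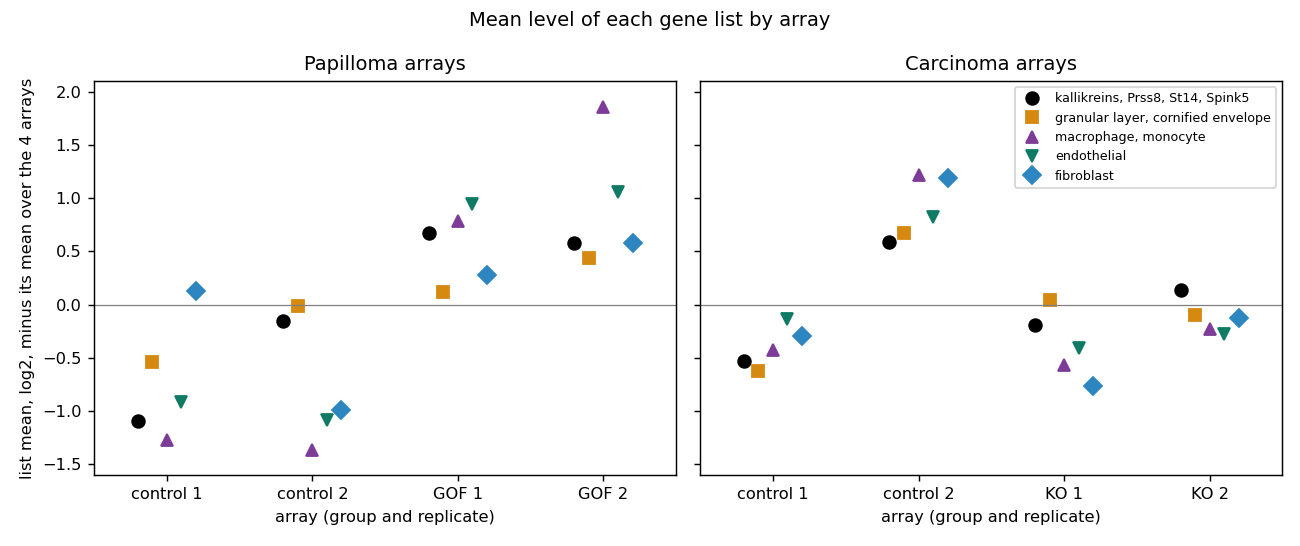
Mean log2 level of 5 gene lists on each array, after subtracting each list's mean over the 4 arrays of its tumour type, papilloma on the left and carcinoma on the right. In papilloma both GOF arrays lie above both controls in all 5 lists, and in carcinoma control replicate 2 is the highest array of every list.

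Among themselves the 8 genes did not all vary together. With the mean of each tumour type taken out, the correlation of a gene with the mean of the other 7 over the 8 arrays was 0.89 for Klk11 and for Spink5, 0.83 for Klk10, 0.70 for Klk8, 0.68 for Klk6 and 0.52 for Prss8. It was -0.26 for St14 and -0.34 for Klk7. The genes outside the set whose values were most like the mean of the 8 were Pglyrp1, which encodes a peptidoglycan recognition protein (r = 0.97), the tachykinin receptor gene Tacr1, Adap2, Ndrg4 and the inositol phosphate kinase gene Itpk1 (each r = 0.95). These correlations describe 8 arrays that share 4 group means, and the 5 genes were the top of a search over all genes.

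Because the tumour types were treated as normalized separately, levels were set side by side only as the percentile of each probe set within its array. Klk8 was at percentiles 92.7 to 95.3 in control papilloma, at 99.4 on both GOF arrays, and at 98.1 to 98.7 on the 4 carcinoma arrays. Klk7 was at 92.5 to 98.6 in papilloma and at 75.3 to 81.0 in carcinoma. Spink5 was at 78.5 to 87.7 in papilloma and at 14.4 to 59.6 in carcinoma. St14 had similar ranks throughout, from 86.1 to 92.1. No test was made of these ranks.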

How the data were processed

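RNA of FACS-isolated tumour cells was read on 8 Affymetrix mouse PM strip arrays. The deposited values are log2, from RMA per the labels' protocols; the submitters' processing notes name RMA and affy, without versions. The papilloma and carcinoma columns differ in scale and in decimals and were treated as normalized separately. The genes and lists were chosen with earlier results of these data known.

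The table held 45141 probe sets, 104 of them controls. Of the rest, 28898 had 1 gene symbol in the platform annotation, 551 several and 15588 none; 28689 were matched by Entrez number to RefSeq GRCm38.p6 for current names. A probe set was tested when at least 2 of 8 arrays exceeded that array's own median, and a gene was represented by its probe set with the highest mean. Genes were fitted with limma 3.58.1 in R 4.3.3 (lmFit, eBayes), with 1 mean per group and a spread common to all arrays, on 4 residual and 2.92 prior degrees of freedom. The code was tested on simulated data.

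All genes of the set are named. Of the other lists, every gene that passed is named, and per list and comparison up to 3 with the largest difference among those separated in all 4 pairs. The 5 genes most like the mean of the set are named by correlation. Inhibitors Spint1 and Spint2, Ptprc and other markers at background, and Krt5 are named outside this rule, after their values were seen. Alternatives were filters, normalizations, the variance prior, the probe set choice, a replicate block, 1 tumour type alone and leaving out each array. The number of arrays limits the precision.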

Additional observations from a re-analysis of the deposited data

Results flagged for a closer look

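The effects of NR2F2 gain in papilloma and of its loss in carcinoma were set against each other for all 8 genes. Of these, 2 were flagged by their result, Klk8 and Prss8. A gene was flagged when the difference passed, or when its arrays lay clear of the controls in opposite directions with gain and loss. Gain and loss are opposite manipulations, so a gene that goes up with one and down with the other also gives a large difference. For Klk8 the KO effect minus the GOF effect was -2.91 (SE 0.38, limma adjusted p = 0.0476), with a rise on both GOF arrays and arrays that overlapped in carcinoma. For Prss8, both GOF arrays were above both controls and both KO arrays below both controls, and the difference of the effects was -3.58 (SE 0.93), which did not pass (limma adjusted p = 0.162). Without control carcinoma replicate 1 the Prss8 difference was -4.74 and passed (limma adjusted p = 0.00917), and without control carcinoma replicate 2 it was -2.43 and did not (0.0766). Tmprss11e, outside the set, likewise had both GOF arrays above both controls and both KO arrays below both controls. The columns of the 2 tumour types were treated as normalized separately.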

How the results depend on the processing

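Over 445 alternative values of the 8 genes, 414 kept their direction and side of the threshold, 11 lost and 4 gained a call, and 16 turned sign. Only Klk8, in papilloma and for the difference of effects, passed in the main fit, so no other value had a call to lose. Leaving out an array of 1 tumour type cannot move a fold within the other. The count of genes of the set separated in GOF papilloma in either direction, 5 and all higher, was 4 to 6 under every alternative. Without control papilloma replicate 1 it was 5 higher and Klk7 lower. Leaving out a papilloma array leaves fewer pairs, so the rule is easier to meet. Of all genes, 6.55% to 11.1% were then separated as higher and 3.99% to 6.74% as lower, against 4.59% and 2.58% with all arrays. The count of all genes past the threshold in papilloma, 184, was 115 without a filter and 2 to 310 when 1 array was left out (2 without either GOF array, 310 without control carcinoma replicate 1). In carcinoma the 2 genes became 1 under the stricter filter, 5 with a trended robust prior, 0 with carcinoma fitted alone or with the mean of probe sets, and 0 to 119 without 1 array (119 without control carcinoma replicate 1).

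With 1 array left out, 1 to 4 of the 8 genes were separated in carcinoma. Leaving out a carcinoma array leaves fewer pairs, so the rule is easier to meet. Of all genes, 4.21% to 5.43% were then separated as higher and 4.3% to 7.95% as lower, against 1.65% and 1.7% with all arrays. The difference in Klk8 did not pass without a filter (limma adjusted p = 0.0647), with the pooled median filter (0.0545), with quantile normalization of all 8 arrays (0.0672), or without either GOF array, either KO array or control carcinoma replicate 2 (0.0738 to 0.245), so 0 genes passed there. With quantile normalization of all 8 arrays 0 genes were separated in carcinoma.

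The deviations of same-numbered arrays correlated at -0.003 in papilloma and 0.12 in carcinoma over 11984 genes, and with 2 numbers per tumour type and no label that ties them, the numbers were not taken as pairs. With the replicate block 37 genes passed in papilloma and 0 in carcinoma, Klk8 still passed in papilloma (limma adjusted p = 0.0479), and 0 of the 8 genes passed for the difference.

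St14 in papilloma was -0.047 with quantile normalization within tumour type, -0.043 with that of all 8 arrays and -0.14 to 0.16 without 1 array. Klk11 in carcinoma was -0.21 with quantile normalization of all 8 arrays. Without 1 array the carcinoma values ran from -0.68 to 0.91 in Klk6, -0.21 to 0.11 in Klk8, -0.51 to 2.1 in Klk10, -1.44 to 1.58 in Klk11, -0.14 to 0.43 in St14 and -0.97 to 1.03 in Spink5, and the differences of effects from -1.98 to 0.64 in Klk10 and -0.15 to 0.42 in St14. The ranges of Klk11 and Spink5 in carcinoma rest in part on signals below background and are not sizes of change. The cause was not tested. The stricter filter left Prss8 out.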
